A study of Mus musculus with 16 samples.

Results

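The collagen genes were examined in skeletal muscle RNA of 16 mice. A gene was a member when its name in the mRNA table was Col, a number, the letter a and a number, with nothing after it. This pattern matched 44 of the 23235 gene names, and the 38 genes with a mean of 10 or more counts over the 16 mice were kept, a rule that uses no difference between groups. The members just inside this limit were Col9a1 with a mean of 11.2 counts, Col26a1 with 13.7 and Col25a1 with 13.8. The 6 genes under the limit were Col17a1 with a mean of 6 counts, Col9a2 with 5.75, Col2a1 with 5.69, Col9a3 with 4.5, Col6a4 with 2.25 and Col10a1 with 0.688, and these were not tested.

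All mice were male C57BL/6J mice (C57BL/6 in the strain label) bought at 6 weeks of age, with 4 mice in each of 4 groups. The control group received a normal diet, and the HFD group received a high-fat diet with 60% fat for 8 weeks. The HFD + RSV group received the same diet and was then treated with resveratrol, a plant polyphenol, for 6 weeks, and the HFD + MET group was treated with metformin, a glucose-lowering drug, for 6 weeks. The comparisons ask which collagen genes differ with the diet and which differ with each treatment on that diet. The sources used here do not state which muscle was taken or which of the sequenced mice, if any, were injected with insulin before tissue collection. All 4 HFD mice carry labels with the same leading number, which no other group carries, so that whatever this number stands for cannot be told apart from the group.

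Collagens are secreted proteins built of chains that wind into a triple helix. Fibrillar collagens form the fibrils of connective tissue, type IV collagen forms the network of the basement membrane that wraps each muscle fibre and capillary, and type VI collagen forms microfibrils that join the basement membrane to the surrounding tissue. The FACIT collagens lie on the surface of fibrils, and the multiplexins sit at the outer face of basement membranes. In skeletal muscle, most collagen is made by fibroblasts and fibro-adipogenic progenitors, and tendon cells, vessel cells, Schwann cells and the fibres themselves make particular types.

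The mRNA table held 17625909 to 29761026 counts per mouse, and the collagen genes took 0.126% to 0.288% of them. Levels of a gene between mice are given here as CPM, the counts scaled to a common library size with TMM factors, and levels between genes are given as FPKM, which divides by transcript length. Muscle fibre genes were abundant in every mouse and the retina markers summed to at most 1.37 CPM in any mouse, although the labels name retinas as the tissue of the RNA extraction. Control mouse 3 and HFD + MET mouse 3 stood apart, with adipocyte marker sums of 5633 and 6040 CPM against 711 to 2773 CPM in the other 14 mice. The main results of the diet are therefore also given without both of these mice.

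Of the 38 collagen genes, Col15a1 and Col24a1 rose in HFD against control. Both passed an adjusted P of 0.05 in edgeR's quasi-likelihood test of all 16 mice over 15364 genes, in which 2.43% of all genes were called and no collagen gene was called lower. DESeq2 on the same mice also called Col6a6 higher and Col8a1 lower. Col15a1 encodes a multiplexin at the outer face of the basement membranes of muscle fibres and capillaries. Col24a1 encodes a minor fibrillar collagen, known mainly from developing bone.

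Col15a1 (ENSMUSG00000028339, chr4:47208161-47313167, GRCm38, plus strand) was measured at 31.6, 32.1, 31.5 and 37.0 CPM in the control mice and at 64.1, 67.2, 81.8 and 55.7 CPM in the HFD mice. Every HFD mouse lay above every control mouse. The log2FC was 1.02 (SE 0.19, edgeR adjusted P = 0.0207), a 2.03-fold higher mean. In the HFD + RSV mice Col15a1 was at 65.7, 63.9, 47.3 and 54.7 CPM, and in the HFD + MET mice at 52.7, 54.7, 27.5 and 37.4 CPM. The HFD + RSV mice all lay above the control mice and overlapped with the HFD mice, whereas all 4 HFD + MET mice lay below the HFD mice and overlapped with the control mice.

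Col24a1 (ENSMUSG00000028197, chr3:145292472-145552011, GRCm38, plus strand) was measured at 5.34, 5.05, 3.21 and 4.58 CPM in the control mice and at 14.9, 15.7, 17.9 and 12.4 CPM in the HFD mice. The lowest HFD mouse was above the highest control mouse. The log2FC was 1.75 (SE 0.41, edgeR adjusted P = 0.0461), a 3.36-fold higher mean. The HFD + RSV mice had 10.7, 4.51, 11.4 and 5.54 CPM, and the HFD + MET mice had 4.51, 3.82, 1.73 and 9.56 CPM. All 8 treated mice lay below the 4 HFD mice, and in both treated groups the values overlapped with those of the control mice.

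**Figure D1:**
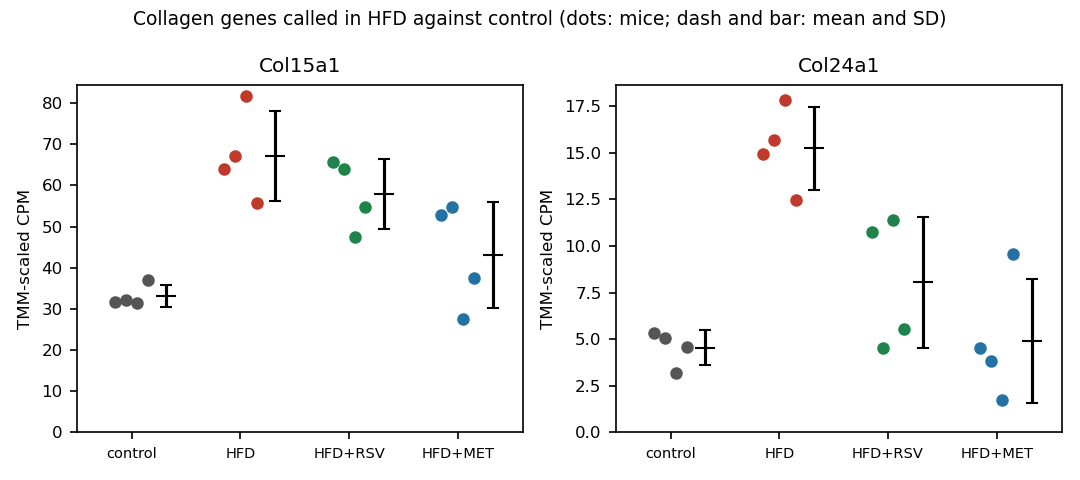
TMM-scaled CPM (y axis, from 0) of Col15a1 and Col24a1 in each of the 4 mice of the 4 groups (x axis). Dots are mice, and the dash with its bar is the mean and SD (n = 4). For both genes the 4 HFD mice lie above the 4 control mice, and for Col24a1 they lie above all other mice.

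Both calls were close to the threshold. Over 24 alternatives, the log2FC of Col15a1 in HFD against control stayed between 0.79 and 1.10 and its adjusted P between 5.2e-05 and 0.0745. The call of Col15a1 was lost when control mouse 2, control mouse 3, HFD mouse 1, HFD mouse 2 or HFD mouse 3 was left out, and under these 5 settings only 16 to 57 genes were called in all, against 374 with every mouse. The log2FC of Col24a1 stayed between 1.09 and 1.83 with an adjusted P between 0.00129 and 0.136, and it was called in 11 of 25 settings. Without control mouse 3 and HFD + MET mouse 3 together, Col15a1 (log2FC 1.00, adjusted P = 0.0106) and Col24a1 (log2FC 1.61, adjusted P = 0.0315) were both called, and Col6a6 was called as well (log2FC 0.77, adjusted P = 0.0129). This setting was chosen after the values had been seen.

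The promoter windows of these 2 genes are shown because both genes were called in HFD against control, and those of Col4a1 and Col4a2 because these 2 genes varied together between mice. The windows reach from 250 bases before to 50 bases after the start of the gene in RefSeq (GRCm38.p6) and are printed 5′ to 3′ along the strand of the gene. Capitals mark 3 motifs, searched on both strands, which did not overlap with each other. The TATA box was searched as the letters TATAAA. The second motif, the box bound by NF-Y, was searched as CCAAT. The GC box, bound by Sp1, was searched as GGGCGG.
Col15a1, chr4:47207762-47208061, plus strand: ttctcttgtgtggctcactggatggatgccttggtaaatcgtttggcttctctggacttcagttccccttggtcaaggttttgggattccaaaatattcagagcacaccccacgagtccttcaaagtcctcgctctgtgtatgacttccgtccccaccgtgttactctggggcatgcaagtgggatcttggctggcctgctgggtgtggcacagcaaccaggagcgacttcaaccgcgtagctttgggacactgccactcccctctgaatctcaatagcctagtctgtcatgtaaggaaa
Col24a1, chr3:145292222-145292521, plus strand: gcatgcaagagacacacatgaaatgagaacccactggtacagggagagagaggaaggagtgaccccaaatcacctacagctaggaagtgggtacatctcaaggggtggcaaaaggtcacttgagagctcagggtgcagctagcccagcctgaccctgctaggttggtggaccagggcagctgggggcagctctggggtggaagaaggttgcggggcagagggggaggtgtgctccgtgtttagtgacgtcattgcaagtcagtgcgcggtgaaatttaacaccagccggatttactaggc
Col4a1, chr8:11312777-11313076, minus strand: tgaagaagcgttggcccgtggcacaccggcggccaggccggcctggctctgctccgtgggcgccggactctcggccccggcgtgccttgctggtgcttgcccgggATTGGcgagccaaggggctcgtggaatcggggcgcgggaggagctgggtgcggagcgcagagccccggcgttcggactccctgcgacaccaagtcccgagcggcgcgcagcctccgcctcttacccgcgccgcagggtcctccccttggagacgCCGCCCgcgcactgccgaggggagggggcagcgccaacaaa
Col4a2, chr8:11312555-11312854, plus strand: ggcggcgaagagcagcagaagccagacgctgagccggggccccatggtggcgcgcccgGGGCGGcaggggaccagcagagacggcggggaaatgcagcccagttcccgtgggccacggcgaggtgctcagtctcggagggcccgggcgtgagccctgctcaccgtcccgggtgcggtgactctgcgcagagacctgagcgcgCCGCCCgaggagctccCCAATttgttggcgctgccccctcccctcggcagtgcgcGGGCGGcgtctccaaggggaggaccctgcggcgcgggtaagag
The windows of Col15a1 and Col24a1 held none of these 3 motifs, which says only that these letters are absent there. The RefSeq start of Col15a1 lies 149 bases before the start of its leading transcript in the deposited table, and that of Col24a1 is the same base. Col4a1 and Col4a2 lie head to head on chromosome 8, with starts 21 bases apart, and their windows share 78 bases. Each held a CCAAT box and at least 1 GC box. The GC box of the Col4a1 window lies in the shared bases and is the same site as a GC box of the Col4a2 window. G and C made up 74% of the Col4a1 window and 73.7% of the Col4a2 window. This compares with 52.3% for Col15a1, 56.3% for Col24a1 and a median of 52.7% over 32851 RefSeq windows. A TATA box was found in 13.6% of these windows, a CCAAT box in 37.4% and a GC box in 35.7%. RefSeq gave 34 windows for 31 of the 38 members, of which 3 held a TATA box, 11 a CCAAT box and 21 a GC box.

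At an unadjusted P of 0.05, 6 of the 38 collagen genes were higher and 3 were lower in HFD than in control mice, and these shares are near the 11.7% and 12.5% of all genes in each direction. Besides the 2 called genes, the higher ones were Col6a6 (log2FC 0.73, SE 0.25, adjusted P = 0.102), Col4a6 (0.97, SE 0.37, adjusted P = 0.131), Col6a3 (0.57, SE 0.22, adjusted P = 0.132) and Col7a1 (0.50, SE 0.22, adjusted P = 0.192). The lower ones were Col8a1 (log2FC -1.59, SE 0.50, adjusted P = 0.0855), Col28a1 (-0.88, SE 0.32, adjusted P = 0.12) and Col14a1 (-0.61, SE 0.26, adjusted P = 0.171). None of these 7 passed the adjusted threshold in edgeR's test of all mice, and DESeq2 called Col8a1 (log2FC -1.59, adjusted P = 0.0185) and Col6a6 (0.74, adjusted P = 0.0423). In edgeR, Col14a1 was called lower with only the 2 groups compared (adjusted P = 0.0402), Col28a1 without the HFD + MET group (adjusted P = 0.0384) or without HFD + MET mouse 3 (adjusted P = 0.0292), and Col8a1 without control mouse 1 (adjusted P = 0.0389). Without control mouse 4, the log2FC of Col8a1 was -0.87 (adjusted P = 0.233). The groups did not overlap, with the HFD mice above, for 4 members (Col15a1, Col24a1, Col6a6 and Col22a1), and, with the HFD mice below, for 2 members (Col14a1 and Col28a1), against 8.83% and 9.44% of all genes. The criteria of the study are a P under 0.05 and a change of more than 1 on the log2 scale. The study also names control of the false discovery rate for its P threshold, and the P is read here as unadjusted. With the criteria so read, 3 members were called (Col15a1, Col24a1 and Col8a1, the last of these not without control mouse 4) beside 4.94% of all genes.

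The median log2FC of the 38 members in HFD against control was 0.19, beside -0.02 over all genes, and 26 of 38 members were above 0. With library totals in place of TMM, the median of the members was 0.03 with 20 of 38 above 0, and that of all genes was -0.18. The signs of genes with a log2FC near 0 therefore depended on the scaling.

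**Figure D2:**
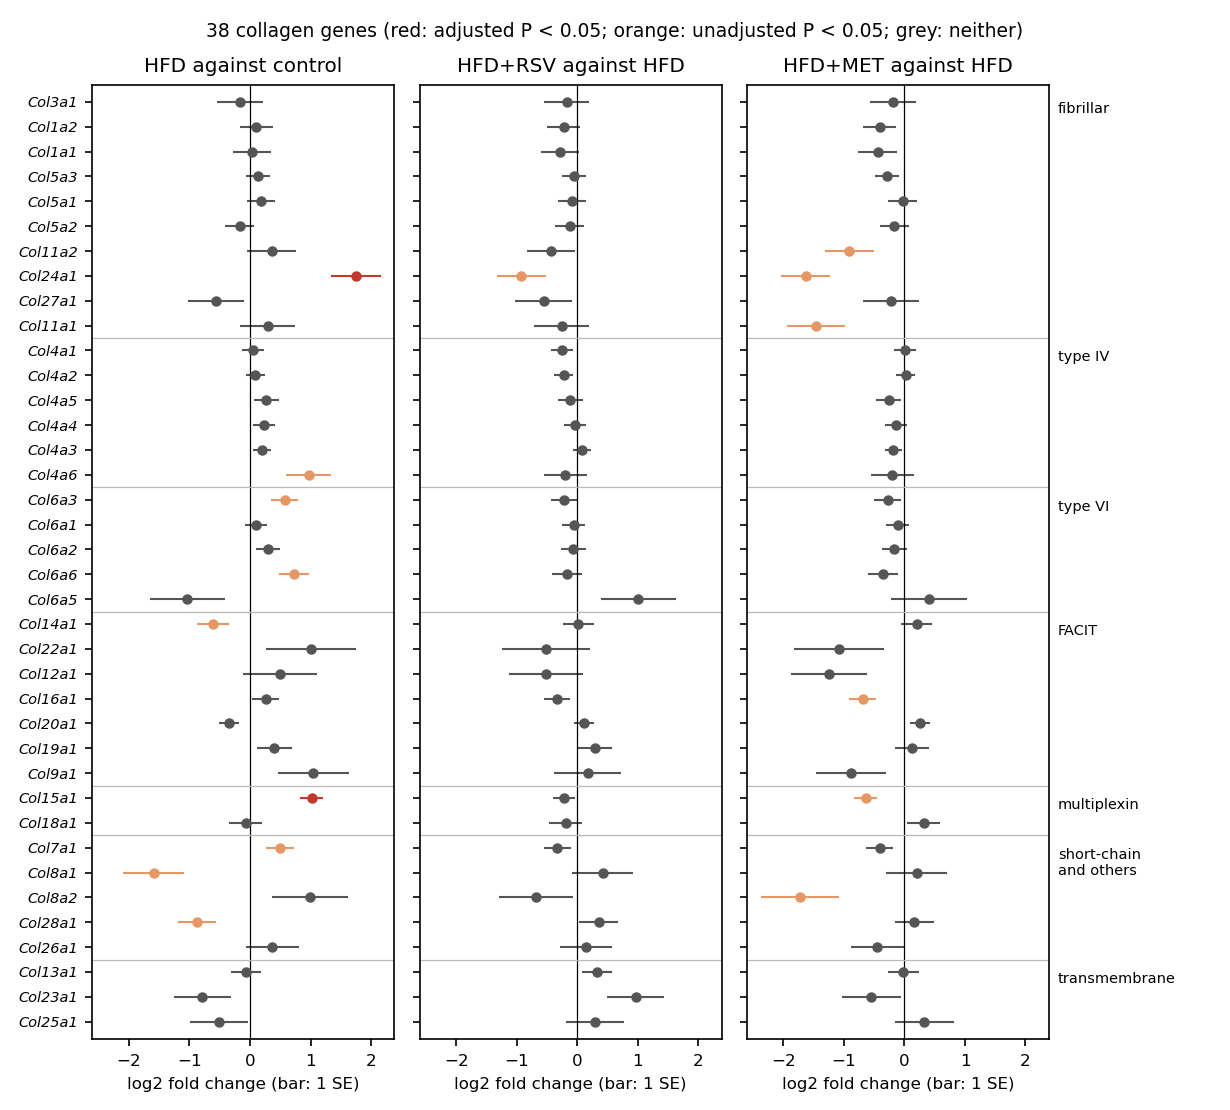
log2 fold change (x axis, with a bar of 1 SE) of the 38 collagen genes, ordered by class and then by mean FPKM, in HFD against control, HFD+RSV against HFD and HFD+MET against HFD. Red marks an adjusted P < 0.05 and orange an unadjusted P < 0.05. Col15a1 and Col24a1 are red in the first comparison, and no gene is red in the comparisons of the treated groups with the HFD group.

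No collagen gene was called in HFD + RSV against HFD by edgeR, in which 0% of all genes were called, and DESeq2 called 8 of all genes and none of the members. At an unadjusted P of 0.05, no member was higher and 1 was lower, beside 2.82% and 1.89% of all genes. This was Col24a1, with a log2FC of -0.92 (SE 0.40, adjusted P = 0.999). On the TMM scale, the groups did not overlap for 3 members, Col24a1, Col4a1 and Col4a2, which were all lower in the HFD + RSV mice, beside 2.32% of all genes lower and 1.88% higher. Col15a1 differed by a log2FC of -0.21 (SE 0.19).

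In HFD + MET against HFD, edgeR called no collagen gene and 0.013% of all genes, and DESeq2 called 31 of all genes, Col24a1 among them (adjusted P = 0.0302). At an unadjusted P of 0.05, 6 members were lower and none was higher, beside 2.79% and 5.23% of all genes. They were Col24a1 (log2FC -1.63, SE 0.41, adjusted P = 0.486), Col15a1 (-0.64, SE 0.19, adjusted P = 0.593), Col16a1 (-0.69, SE 0.22, adjusted P = 0.5998), Col11a1 (-1.46, SE 0.48, adjusted P = 0.5998), Col8a2 (-1.73, SE 0.65, adjusted P = 0.611) and Col11a2 (-0.91, SE 0.41, adjusted P = 0.618). The groups did not overlap for Col24a1, Col15a1, Col16a1, Col11a2 and Col23a1, 5 members that were all lower in the HFD + MET mice, beside 1.89% of all genes lower and 1.83% higher. The HFD mice stand in both comparisons, so a high HFD value enters each of them with the opposite sign, and the values above are given side by side without a test between them.

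Against the control group, no collagen gene was called by edgeR in the HFD + RSV group (0.00651% of all genes called) or in the HFD + MET group (0% of all genes called). At an unadjusted P of 0.05, 6 members differed between the HFD + RSV and control groups, beside 15.8% of all genes, and 4 differed between the HFD + MET and control groups, beside 9.5%. Col15a1 had the smallest P of the members in HFD + RSV against control (log2FC 0.81, SE 0.19, adjusted P = 0.132), and DESeq2 called it with a log2FC of 0.81 (adjusted P = 0.0068). Between the HFD + RSV and HFD + MET groups edgeR called no member and 0% of all genes, and 3 members differed at an unadjusted P of 0.05 beside 4.68% of all genes. These were Col23a1 (log2FC 1.51, SE 0.48), Col11a1 (1.20, SE 0.48) and Col15a1 (0.43, SE 0.19), each with an adjusted P of 0.962. For Col23a1, HFD + RSV mouse 2 was at 5.25 CPM and the other HFD + RSV mice at 0.887 to 1.61 CPM.

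Per length, the collagen genes spanned a wide range, from a mean of 52.9 FPKM for Col3a1 to 0.108 FPKM for Col25a1. Only 9 genes had a mean of 10 FPKM or more and 14 of the kept genes were under 1 FPKM. The order began with Col3a1, Col1a2 (48.5 FPKM), Col4a1 (38.5), Col1a1 (31.6), Col4a2 (24.3), Col6a3 (21.8), Col6a1 (17.1), Col6a2 (13.7), Col5a3 (10.7) and Col15a1 (8.87). The ranges over the 16 mice of neighbours in this order overlapped throughout these 10 genes. The 5 genes with the highest FPKM took 61.9% of the summed collagen CPM.

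**Figure D3:**
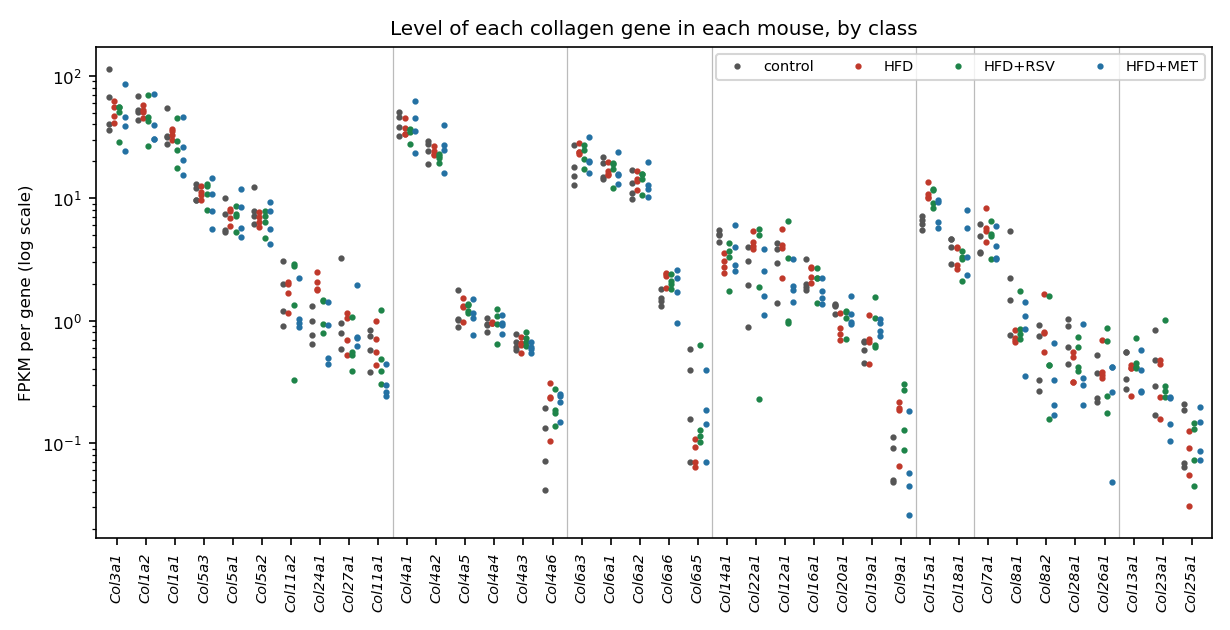
FPKM per gene (y axis, log scale) of the 38 collagen genes in each of the 16 mice, with the genes ordered by class (vertical lines) and by mean FPKM. The genes of types I, III, IV (Col4a1 and Col4a2) and VI (Col6a1 to Col6a3) lie highest, and the transmembrane genes lie among the lowest.

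The 10 fibrillar genes took 50.5% of the summed collagen CPM. Col3a1 encodes the chain of type III collagen, which forms fine fibrils around muscle fibres. Col3a1 was at 224, 227, 356 and 659 CPM in the control mice, 309, 272, 399 and 327 in the HFD mice, 304, 333, 338 and 182 in the HFD + RSV mice and 512, 245, 238 and 152 in the HFD + MET mice. The 4 groups overlapped, and control mouse 4 was the highest of all mice. Its log2FC in HFD against control was -0.17 (SE 0.38), and without control mouse 4 it was 0.28.

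Col1a1 and Col1a2 encode the chains of type I collagen, the main fibril of tendon and of the connective tissue of muscle. Col1a1 was at 195, 197, 189 and 340.1 CPM in the control mice, 215, 259, 234 and 237 in the HFD mice, 304, 162, 193 and 120.2 in the HFD + RSV mice and 299.8, 139, 148 and 109 in the HFD + MET mice. Col1a2 was at 257, 270.2, 264 and 374 CPM in the control mice, 285, 363, 319 and 289 in the HFD mice, 408, 231, 272 and 165 in the HFD + RSV mice and 386, 187, 193 and 183 in the HFD + MET mice. All 4 groups overlapped for both genes, and the 3 highest mice were the same, control mouse 4, HFD + RSV mouse 1 and HFD + MET mouse 1. In HFD against control the log2FC was 0.04 (SE 0.32) for Col1a1 and 0.11 (SE 0.27) for Col1a2, and both were below 0 when library totals were used without a scaling factor.

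Col5a1, Col5a2 and Col5a3 encode the chains of type V collagen, which sits within type I fibrils and limits their diameter. Col5a3 was the most abundant of them per length and was at 64.6, 60.5, 66.3 and 81.0 CPM in the control mice, 65.3, 73.3, 87.6 and 72.3 in the HFD mice, 68.7, 79.5, 83.0 and 56.6 in the HFD + RSV mice and 88.0, 54.9, 63.6 and 38.5 in the HFD + MET mice. These values overlapped between all groups. Col5a1 ranged from 48.7 to 111 CPM and Col5a2 from 29.8 to 85.1 CPM. Of the remaining fibrillar genes, Col11a1 (1.35 to 9.03 CPM) and Col11a2 (1.56 to 9.85 CPM) encode chains of type XI collagen, known from cartilage and tendon, and Col27a1 ranged from 2.55 to 17.8 CPM with its highest value in control mouse 3. In HFD + RSV against HFD all 10 fibrillar genes had a log2FC below 0, with a median of -0.24, and in the HFD + MET group all 10 were below 0 as well, with a median of -0.35, whereas with library totals 9 of 10 were below 0 in each. Only Col24a1 in the first of these, and Col24a1, Col11a1 and Col11a2 in the second, had an unadjusted P under 0.05.

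The 6 type IV genes took 23.1% of the summed collagen CPM. Col4a1 and Col4a2 encode the chains of the type IV network found in all basement membranes. Col4a1 was at 236, 247, 296 and 295 CPM in the control mice, 254, 257, 281 and 315 in the HFD mice, 232, 241, 247 and 208 in the HFD + RSV mice and 309, 247, 382 and 173 in the HFD + MET mice. Col4a2 was at 145, 168, 187 and 187 CPM in the control mice, 176, 181, 185 and 191 in the HFD mice, 162, 164, 154 and 146 in the HFD + RSV mice and 188, 187, 245 and 122 in the HFD + MET mice. The HFD + MET mice spread most for both genes, and the 4 HFD + RSV mice lay below the 4 HFD mice for both. The log2FC of HFD + RSV against HFD was -0.25 (SE 0.18) for Col4a1 and -0.23 (SE 0.15) for Col4a2, with unadjusted P of 0.185 and 0.164. Col4a3, of whose exon bases 5.65% are shared with a gene on the other strand, Col4a4, Col4a5 and Col4a6 encode the chains of the type IV networks known from the kidney, the lung and smooth muscle, and they were far lower, with means of 0.651, 0.952, 1.21 and 0.185 FPKM and ranges over the 16 mice of 4.44 to 7.72, 7.02 to 13.1, 5.93 to 11.3 and 0.337 to 1.90 CPM. All 6 type IV genes had a log2FC above 0 in HFD against control, with a median of 0.21 and with Col4a6 alone under an unadjusted P of 0.05, but with library totals 4 of 6 were above 0.

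The 5 kept type VI genes took 15.9% of the summed collagen CPM. Col6a1, Col6a2 and Col6a3 encode the chains of the standard type VI molecule, whose loss causes congenital muscular dystrophies. Col6a3 was at 94.6, 93.4, 115 and 174 CPM in the control mice, 169, 179, 198 and 163 in the HFD mice, 169, 144, 176 and 119 in the HFD + RSV mice and 207, 149, 114 and 115 in the HFD + MET mice. Of the control mice, 3 lay below all HFD mice, and control mouse 4 lay within their range. Col6a1 was at 70.7, 66.3, 80.0 and 95.4 CPM in the control mice, 84.0, 81.0, 99.8 and 70.4 in the HFD mice, 91.5, 80.6, 89.8 and 59.6 in the HFD + RSV mice and 108, 77.0, 61.9 and 63.7 in the HFD + MET mice. Col6a2 was at 53.2, 52.0, 59.1 and 81.9 CPM in the control mice, 78.1, 78.4, 88.9 and 57.2 in the HFD mice, 80.7, 71.5, 81.6 and 56.2 in the HFD + RSV mice and 95.6, 67.2, 53.1 and 53.4 in the HFD + MET mice. The groups overlapped for both genes, with a log2FC in HFD against control of 0.10 (SE 0.19) for Col6a1 and 0.30 (SE 0.21) for Col6a2. Col6a6, which encodes a chain that can take the place of the Col6a3 product, was at 12.0 to 15.9 CPM in the control mice, 20.4 to 26.1 in the HFD mice, 19.4 to 23.9 in the HFD + RSV mice and 7.98 to 25.4 in the HFD + MET mice. Its HFD and HFD + RSV mice all lay above the control mice, and it was called in HFD against control by DESeq2 (adjusted P = 0.0423) and without HFD + MET mouse 3 (adjusted P = 0.00601). Col6a5 ranged from 0.468 to 4.34 CPM.

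The 7 kept FACIT genes took 5.16% of the summed collagen CPM. Col12a1 and Col14a1 encode collagens on the surface of fibrils in tendon and muscle sheaths, and Col22a1 encodes a collagen of the myotendinous junction, where fibres attach to tendon. Col22a1 was at 39.1, 27.1, 6.88 and 15.1 CPM in the control mice, 39.6, 56.7, 40.6 and 40.4 in the HFD mice, 54.1, 1.78, 49.4 and 18.6 in the HFD + RSV mice and 22.7, 10.1, 10.8 and 40.1 in the HFD + MET mice. It varied most of all members between mice, with an SD of 1.28 on the scale of log2(CPM + 0.5), followed by Col12a1 with 1.00, which ranged from 6.29 to 75.3 CPM. For Col22a1 the 4 HFD mice lay above the 4 control mice, but the log2FC of 1.01 had an SE of 0.74. Col14a1 was at 26.5 to 31.7 CPM in the control mice and at 14.2 to 22.7 CPM in the HFD mice, which did not overlap. Col16a1, Col19a1, Col20a1 and Col9a1 ranged from 4.78 to 11.3, 2.44 to 8.24, 3.73 to 6.72 and 0.11 to 1.25 CPM.

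The other multiplexin, Col18a1, which encodes the source of endostatin, ranged from 13.3 to 39.8 CPM and had a log2FC of -0.07 (SE 0.27) in HFD against control. Among the short-chain and other genes, Col8a1 encodes a collagen of vessel walls and was at 4.77, 12.5, 7.54 and 30.2 CPM in the control mice and at 3.81 to 5.41 CPM in the HFD mice. Control mouse 4 was the highest of all mice and control mouse 1 lay within the HFD range. Col28a1, known from peripheral nerve, was at 2.03 to 3.54 CPM in the control mice and at 1.29 to 1.81 CPM in the HFD mice. Col7a1, the chain of anchoring fibrils, ranged from 12.7 to 32.2 CPM, Col8a2 from 0.718 to 9.11 CPM and Col26a1 from 0.127 to 1.21 CPM. The transmembrane genes were low, with Col13a1, a collagen of the neuromuscular junction, at 0.865 to 1.83 CPM, Col23a1 at 0.575 to 5.25 CPM and Col25a1 at 0.23 to 1.09 CPM.

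Summed over the 38 genes, the collagen level was 1700, 1763, 1942 and 2732 CPM in the control mice, 2087, 2222, 2392 and 2146 in the HFD mice, 2317, 1876, 2057 and 1418 in the HFD + RSV mice and 2658, 1662, 1808 and 1335 in the HFD + MET mice. The means were 2034 ± 476, 2212 ± 132, 1917 ± 379 and 1866 ± 564 CPM (SD, n = 4). The groups overlapped, and the HFD mice spread least. In bulk tissue, fewer cells of a type and less RNA per cell cannot be told apart.

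Some pairs of chains that share a molecule kept a narrow ratio between mice. Over the 16 mice, the log2 ratio of Col4a1 to Col4a2 in FPKM had an SD of 0.09, whereas the log2 level in CPM had an SD of 0.27 for Col4a1 and 0.22 for Col4a2. The ratio itself lay between 1.43 and 1.71. The ratio of Col6a1 to Col6a2 had an SD of 0.11 against 0.26 and 0.30 for the single genes, and that of Col1a1 to Col1a2 an SD of 0.13 against 0.48 and 0.41. For Col5a1 to Col5a2 it was 0.22 against 0.33 and 0.35, and for Col6a3 to Col6a1 0.23 against 0.37 and 0.26. Col3a1 to Col1a1, of types III and I, had 0.31 against 0.53 and 0.48. A ratio narrower than its genes was thus not particular to chains that share a molecule. Col4a3 and Col4a4, which lie head to head on chromosome 1, had an SD of 0.22 for their ratio against 0.22 and 0.26 for the single genes. Col4a5 and Col4a6, also head to head with starts 1343 bases apart on the X chromosome, had an SD of 0.67 for its ratio, with Col4a6 at 6 to 48 counts per mouse. The ratios of 5 pairs were compared in HFD against control and in each treated group against HFD, which gave 15 tests. Each was an exact permutation test, two-sided, in which 0.0286 is the smallest P that 4 mice a group allow. The ratio of Col5a1 to Col5a2 was -0.24 ± 0.12 in the control group and 0.10 ± 0.09 in the HFD group on the log2 scale (SD, n = 4), with an exact P of 0.0286 and an adjusted P of 0.429. Col6a1 to Col6a2 was 0.47 ± 0.10 in the control group and 0.26 ± 0.10 in the HFD group (n = 4, exact P = 0.0571, adjusted P = 0.429). None of the 15 passed after adjustment, where 0.429 was the smallest adjusted P.

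The 38 genes had 171 transcripts, of which 82 were tested. None was called at an adjusted P of 0.05 in any of the 6 comparisons by edgeR. In HFD against control, only 7 of all 44573 transcripts were called. At an unadjusted P of 0.05, 8 were higher and 3 were lower in this comparison, beside 13.1% of all transcripts in either direction. The leading transcript of Col15a1, ENSMUST00000102917, held 96.7% of the counts of the gene and had a log2FC of 1.06 (SE 0.20, adjusted P = 0.0986). That of Col24a1, ENSMUST00000029848, held 95.3% and had a log2FC of 1.94 (SE 0.49, adjusted P = 0.164). In 25 of the 38 genes the leading transcript held at least 90% of the counts, and in 11 it held under 70%. In HFD + MET mouse 2, the Col4a1 transcript ENSMUST00000209735 had 4327 counts against 59 to 115 in all other mice, and the leading transcript ENSMUST00000033898 had 2184, the lowest of all mice, while the summed Col4a1 level of this mouse was within the range of the others. In HFD + RSV mouse 1, the Col15a1 transcript ENSMUST00000082303 had 278 counts against at most 4 elsewhere. The gene sums add up all transcripts, so that counts moved between transcripts of 1 gene leave them as they are.

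Genes that make collagen were described by a list of 22 enzymes and chaperones, of which 20 were tested. In HFD against control, 2 of the 20 rose and none fell, beside 2.43% of all genes, and the median log2FC was 0.19. Both are catalytic subunits of prolyl 4-hydroxylase, which hydroxylates proline in collagen chains so that the helix is stable. P4ha1 was at 52.4, 39.1, 37.0 and 34.7 CPM in the control mice and at 70.7, 69.1, 65.9 and 75.6 CPM in the HFD mice, with a log2FC of 0.79 (SE 0.19, adjusted P = 0.0465). P4ha2 was at 23.6, 22.9, 20.9 and 23.0 CPM in the control mice and at 35.5, 38.7, 33.5 and 37.99 CPM in the HFD mice, with a log2FC of 0.69 (SE 0.09, adjusted P = 0.00573). The groups did not overlap for either gene. The adjusted P of P4ha1 was close to the threshold. How many genes of the lists described here and next were called under other settings is given below. P4ha2 was at 28.3 to 31.4 CPM in the HFD + RSV mice and 23.0 to 31.7 CPM in the HFD + MET mice, all below the HFD mice, and neither difference passed adjustment (adjusted P = 0.999 and 0.398). Serpinh1, the collagen chaperone HSP47, which is named after its values were seen, had a log2FC of 0.78 (SE 0.26, adjusted P = 0.099) in HFD against control. Summed over the 21 genes of the list in the table, the level was 571 to 632 CPM in the control mice, 709 to 742 in the HFD mice, 623 to 688 in the HFD + RSV mice and 572 to 686 in the HFD + MET mice. The 4 HFD mice lay above all other mice on this TMM scale, but not with library totals. The TMM factor was 0.894 in HFD mouse 2 and 1.17 in control mouse 3, and with library totals these 2 mice change order.

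**Figure D4:**
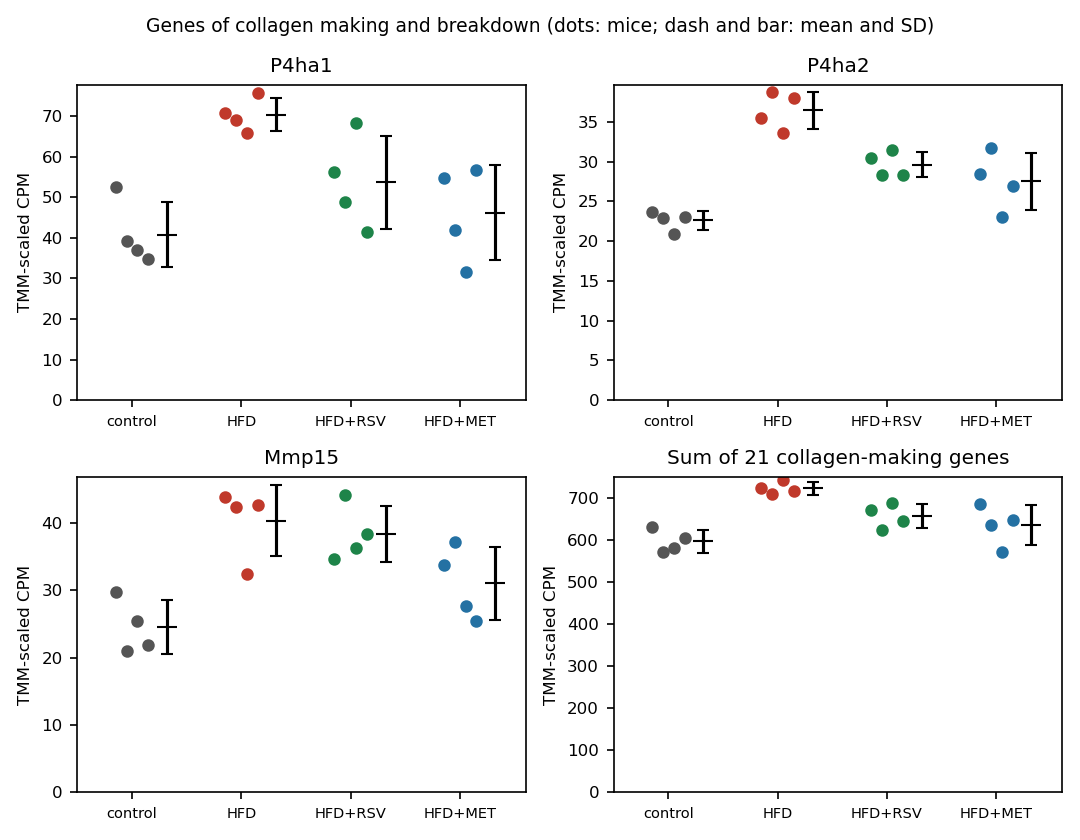
TMM-scaled CPM (y axes, from 0) of P4ha1, P4ha2, Mmp15 and the sum of 21 collagen-making genes in each mouse of the 4 groups. Dots are mice, and the dash with its bar is the mean and SD (n = 4). In the sum, the HFD mice at 709 to 742 CPM lie above the 12 other mice on this TMM scale, but not with library totals.

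Of the 15 tested genes of collagen breakdown, Mmp15, a membrane-bound metalloproteinase, rose in HFD against control (log2FC 0.72, SE 0.14, adjusted P = 0.0299), from 21.04 to 29.8 CPM in the control mice to 32.5 to 43.8 CPM in the HFD mice. The other 14 did not pass. No gene was called among the 13 for procollagen processing and cross-linking, the 9 tested collagen receptors, the 20 of the TGF-beta pathway, the 13 fibril-binding proteoglycans and matricellular proteins or the 14 laminins and other basement membrane genes, and their median log2FC lay between -0.19 and 0.08. At an unadjusted P of 0.05, 3, 2, 6, 0 and 4 genes of these lists differed in either direction, beside 24.2% of all genes. In the HFD + RSV and HFD + MET groups against the HFD group no gene of any of these 7 lists was called by edgeR, and DESeq2 called 1 in the HFD + MET group.

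The level of several collagen genes moved with markers of tendon cells between mice. The 9 tenocyte markers summed to 50.7 to 357 CPM in the control mice, 247 to 536 in the HFD mice, 33.5 to 587 in the HFD + RSV mice and 63.7 to 200.2 in the HFD + MET mice, so that the HFD mice all lay above the HFD + MET mice. All 9 were tested, their median log2FC was 0.58 in HFD against control and -1.53 in HFD + MET against HFD, and none was called by edgeR. Tnmd and Kera, named after their values were seen, were at 0 counts in HFD + RSV mouse 2. After the group means were removed, the log2 level of Col12a1 correlated with the mean log2 level of these markers over the 16 mice (Pearson r = 0.97, adjusted permutation P = 0.0076, Spearman rho = 0.94, adjusted permutation P = 0.0095), and r was 0.95 without the 2 mice farthest from the median. For Col11a1 the values were r = 0.88 (adjusted permutation P = 0.00855) and rho = 0.83 (adjusted permutation P = 0.0133), with r = 0.85 without these 2 mice. For Col22a1, Col8a2 and Col24a1, Pearson's r was 0.90, 0.84 and 0.72 with adjusted permutation P of 0.0492, 0.0399 and 0.0399, and Spearman's rho was 0.77, 0.74 and 0.80 with adjusted permutation P of 0.117, 0.123 and 0.117. For Col15a1 Pearson's r was 0.17 (adjusted permutation P = 0.82). In all, 190 correlations were computed, of 38 genes with 5 marker lists, a step chosen after the values had been seen. Outside the tendon markers, 4 passed by Pearson's r and none by Spearman's rho, among them Col24a1 with the Schwann cell markers (r = -0.70, adjusted permutation P = 0.0492, rho = -0.74, adjusted permutation P = 0.123). The part of these markers in the group comparisons was not tested.

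**Figure D5:**
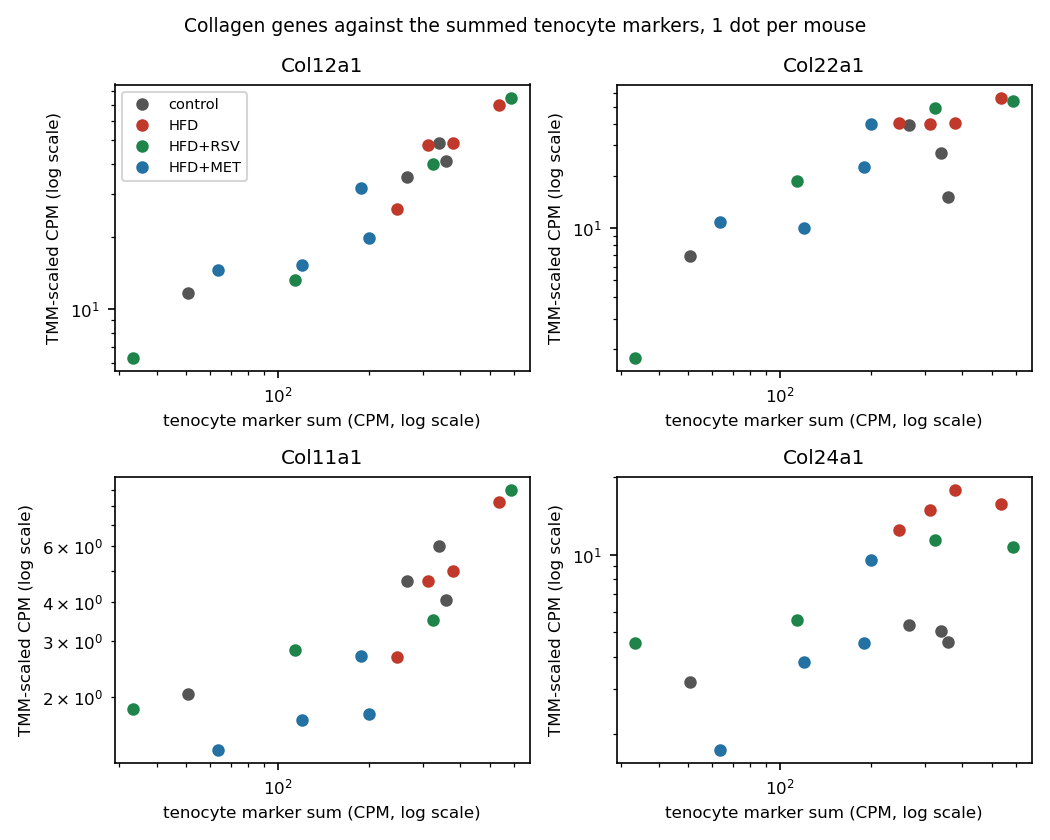
TMM-scaled CPM of Col12a1, Col22a1, Col11a1 and Col24a1 (y axes, log scale) against the summed CPM of 9 tenocyte markers (x axes, log scale), with 1 dot for each of the 16 mice, coloured by group. Col12a1 runs along with the markers in all groups, and for Col24a1 the 4 HFD mice lie above all control mice.

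Other cell type markers were read beside the collagen genes. The median log2FC of the 12 fibroblast and FAP markers was -0.09 in HFD against control, with none called, and that of the 7 endothelial markers -0.30, that of the 8 pericyte and smooth muscle markers -0.24 and that of the 8 macrophage markers -0.21. At an unadjusted P of 0.05, 4 of the 7 endothelial markers and 1 marker of each other list named here were lower, beside 12.5% of all genes. No marker of these lists was higher at this threshold, and edgeR called none. The 9 Schwann cell markers had a median of -1.34, with 6 lower at an unadjusted P of 0.05, beside 12.5% of all genes, and a sum of 68.3 to 228 CPM in the control mice and 48.7 to 69.5 CPM in the HFD mice, and the 8 adipocyte markers a median of -1.90, with 3 lower. In HFD + RSV against HFD, the Schwann cell markers had a median of 1.25. There 7 were higher at an unadjusted P of 0.05, beside 2.82% of all genes, and edgeR called none. Their sum was 432 CPM in HFD + RSV mouse 2 and 46.6 to 151 CPM in the other HFD + RSV mice. Myh7 and Myh4 are named after their values were seen. The slow myosin gene Myh7 ranged from 2.81 to 917 CPM in the control mice and from 2.71 to 59.4 CPM in the HFD mice, and the fast myosin gene Myh4 from 27329 to 54143 CPM and from 51671 to 58964 CPM. Of the 8 muscle fibre markers none was called. The part of these differences in the collagen values was not tested. Of the 8 cartilage and bone markers only 1 was abundant enough to be tested, and Sp7, Ibsp and Acan had at most 4 counts in any mouse.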

How the data were processed

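Per the labels and the study's methods, RNA of skeletal muscle was sequenced (TruSeq libraries, NovaSeq), trimmed with fastp and aligned to GRCm38 with HISAT2, and StringTie was used for the transcripts. The strandedness of the counting is not given in the sources used here. The authors deposited an estimated count, given as a whole number, and an FPKM per transcript and mouse, and the expected counts were summed here per gene name. The separate lncRNA table was used only to check the library sizes behind the FPKM. FPKM values deposited by the authors were summed per gene to compare levels between genes. The mRNA matrix had 4 records split over lines, which were joined.

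Groups were taken from the labels, mice were numbered in accession order, and each mouse gave 1 library. All 16 mice were fitted together with edgeR 4.0.16 in R 4.3.3 (TMM, filterByExpr with a minimum of 10 counts, robust quasi-likelihood test), and genes were called at a Benjamini-Hochberg adjusted P < 0.05 over 15364 genes. On simulated data for the HFD against control comparison, 88% of 200 genes changed by a log2FC of 2 were recovered among 15194 genes, and 4 unchanged genes were called. The log2FC of the members in this comparison lay between -1.59 and 1.75. The recovery of changes of that size was not simulated. Chain ratios were compared by exact permutation tests, and marker correlations by 100000 permutations within groups on log2(CPM + 0.5), with ranks from scipy 1.17.1. Alternatives used other scalings, DESeq2 1.42.0, no filter, limma 3.58.1 on log2(FPKM + 0.1), fewer groups and each mouse left out. Counts of 17625909 to 29761026 per mouse set the precision of low genes.

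Per-mouse values are given for the 10 members with the highest mean FPKM and for members called by edgeR on all mice in any comparison, and also for Col22a1, chosen after its values were seen. The other members are given by their range, some with single values of a group, and up to 4 called genes of each other list are named. The collagen family and the gene lists were chosen with earlier results of these data known, although the rule for members uses no group difference.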

Additional observations from a re-analysis of the deposited data

Results flagged for a closer look

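Among 176 group values of 4 mice each, 15 had a highest or lowest mouse whose gap to the nearest of the others passed Dixon's 95% limit as a share of the group's range. Chance flags about 1 in 20 such groups. In the control group, mouse 4 was high for Col1a2 (374 CPM, others 257 to 270.2 CPM), Col1a1 (340.1 CPM, others 189 to 197 CPM), Col5a2 (85.1 CPM, others 42.6 to 47.3 CPM) and Col15a1 (37.0 CPM, others 31.5 to 32.1 CPM). It was also high for the log2 ratio of Col1a1 to Col1a2 (-0.33, others -0.71 to -0.65), and control mouse 3 was high for Col27a1 (17.8 CPM, others 3.07 to 5.08 CPM). In the HFD group, mouse 2 was high for Col22a1 (56.7 CPM, others 39.6 to 40.6 CPM).

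In the HFD + MET group, mouse 1 was high for Col1a2 (386 CPM, others 183 to 193 CPM) and Col14a1 (34.4 CPM, others 16.03 to 19.01 CPM), and mouse 3 was high for Col28a1 (3.13 CPM, others 1.04 to 1.32 CPM). HFD + MET mouse 4 was low for the log2 ratio of Col1a1 to Col1a2 (-0.96, others -0.62 to -0.56). In the HFD + RSV group, mouse 1 was high for Col8a1 (10.3 CPM, others 4.43 to 4.99 CPM), mouse 2 for Col23a1 (5.25 CPM, others 0.887 to 1.61 CPM) and mouse 3 for Col27a1 (5.23 CPM, others 2.86 to 3.00 CPM). HFD + RSV mouse 3 was low for Col20a1 (3.73 CPM, others 5.54 to 5.81 CPM).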

How the results depend on the processing

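In HFD against control, 2 collagen genes were called. This count was 1 with library totals without a scaling factor, with no filter and with limma on log2(FPKM + 0.1), and 4 with DESeq2, with only the 2 groups compared and with the 12 mice without HFD + MET. In the settings with 1, the calls over all genes were 186 of 15364, 158 of 23235 and 197 of 15364. In those with 4 they were 1544 of 15364, 998 of 14816 and 1616 of 15097, against 374 of 15364 in the main fit. Leaving out 1 mouse gave 0 to 4, with 0 without control mouse 2, control mouse 3, HFD mouse 1, HFD mouse 2 or HFD mouse 3, and 4 without HFD + MET mouse 3. Without HFD + MET mouse 3, 1588 of all 15565 genes were called, against 16 to 57 in the fits with 0. The cause was not tested. Against the HFD group, DESeq2 called 1 member in the HFD + MET group, beside 31 of all 15364 genes, and the criteria of the study called 3. In the HFD + RSV group against control, DESeq2 called 1 member, the fit of 12 mice 2 and the criteria of the study 2, and leaving out 1 mouse gave 0 to 2. Of all genes, DESeq2 called 355 and the fit of 12 mice 231 in this comparison. In the HFD + MET group against control, leaving out 1 mouse gave 0 to 2, and the criteria of the study called 3. Both values of 2 came without HFD + MET mouse 3, where 261 and 180 of all genes were called in these 2 comparisons. Between the treated groups the criteria of the study called 2. The share of all genes by these criteria is given above for HFD against control only. The counts by these criteria in the other comparisons therefore have no share beside them and are not read as a result. Of the genes in the other lists, 3 (P4ha1, P4ha2 and Mmp15) were called in HFD against control, beside 374 of all genes. With library totals this was 1 beside 186, and with DESeq2 it was 20 beside 1544. In HFD + MET against HFD, DESeq2 called 1 beside 31.

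The signs given here turned for members and ratios with small differences, and not every member whose sign turned is listed. With library totals in place of TMM, 16 members against 12 were above 0 in HFD + RSV against HFD. For HFD + MET against HFD these were 13 against 10. In HFD against control, with library totals and with limma, the log2FC was -0.059 and -0.053 for Col1a2, -0.12 and -0.15 for Col4a1, -0.12 and -0.069 for Col1a1, -0.077 and -0.044 for Col4a2, -0.070 and -0.036 for Col6a1 and -0.031 and -0.0049 for Col5a3. With 1 mouse left out it lay between -0.34 and 0.28 for Col3a1, -0.024 and 0.091 for Col4a1 and -0.050 and 0.29 for Col1a1, and without control mouse 3 and HFD + MET mouse 3 that of Col1a1 was -0.050. In HFD + MET against control, Col24a1 had a log2FC of -0.24 with limma and -0.44 to 0.40 with 1 mouse left out. Differences of log2 chain ratios with 1 mouse left out lay between -0.068 and 0.071 for Col1a1 to Col1a2 and -0.22 and 0.017 for Col3a1 to Col1a1 in HFD against control. In HFD + MET against HFD they lay between -0.12 and 0.010 for Col1a1 to Col1a2 and -0.038 and 0.043 for Col4a1 to Col4a2. In HFD + RSV against HFD they lay between -0.013 and 0.070 for Col4a1 to Col4a2 (-0.026 from summed counts), -0.075 and 0.091 for Col5a1 to Col5a2 and -0.029 and 0.045 for Col6a1 to Col6a2.

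No paired analysis was possible because the titles number the mice in parts of unstated meaning. Single parts recur between groups, but no whole number of an HFD mouse recurs in another group, and control and HFD + RSV share 1. With library totals, the median log2FC of all genes was -0.18 in HFD against control and 0.14 in HFD + MET against HFD. Depth limits the members with means of 10 to 40 counts, such as Col9a1, Col25a1 and Col4a6.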
